A study of Mus musculus with 2 samples.

Results

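The interleukins are secreted proteins through which blood cells signal to each other, and each acts through a receptor built from 1 or more chains on the surface of the responding cell. The genes described here are those of the mouse whose name on the array began with Il and a digit, without Il3, Il3ra and Il5ra. They were 80 genes, read by 99 probes at 135 spots, of 31709 genes and 43020 spots that were not controls. By role, 38 were counted as ligands, 38 as receptor chains and 4 as an antagonist, a binding protein or an enzyme. The ligand count includes Il1f5, which codes for a receptor antagonist. The genes were picked by name and not by their values, though with earlier results of these data known.

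RNA from the parental Ba/F3 cells and from BaF/3 (#BEB1) was compared, with 1 array per cell line. Ba/F3 is a mouse pro-B line dependent on interleukin-3 (IL-3), and both lines were kept in RPMI medium with foetal calf serum and recombinant mouse IL-3. BaF/3 (#BEB1) is a single clone of Ba/F3 cells that had been infected with a retroviral cDNA library from the rat cell line CG4 and sorted repeatedly for binding of the peptide hormone Ecrg4. A difference between the lines therefore cannot be told apart from a difference between any 2 clones or cultures, no replicate stands behind it, and no test was made.

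The deposited scanner output and the authors' table of normalised values gave the 2 arrays to opposite cell lines. The array whose scanner output carried the name of the parental cells is called array A below, and the one under the name of #BEB1 array B. Over 39429 probes, the #BEB1 column of the table followed array A with a Pearson correlation of 0.999996 and array B with 0.982286, while its parental column followed array B with 0.999998 and array A with 0.982285. A gene brighter on array A was thus higher in #BEB1 by the table and higher in the parental cells by the scanner output, and the assignment is not settled here. Differences below are in log2 units and subtract array B from array A. Olr1, the gene of the Ecrg4 receptor LOX-1 that the study cloned from #BEB1, was 32.1-fold brighter on array A. The study places its mRNA higher in #BEB1, which is the direction of the table and not that of the scanner output. That statement comes from the study's own microarray of these lines, so it is not a check apart from the table. Apart from the microarray, the study recovered LOX-1 cDNA from Ecrg4-binding Ba/F3 clones that had received a library made from #BEB1 mRNA. That cloning gives no Olr1 level in either line.

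Of the probes, 49.4% on array A and 49.9% on array B were well above background, the mark that the scanner software sets on a spot, and 0 spots were saturated. Signals were divided by the array's 75th percentile, 1506 for array A and 1080 for array B. The 211 probes that were printed at 10 spots and well above background at each had a median SD of 0.06 on array A and 0.05 on array B, on the log2 scale. For a difference of single spots this comes to 0.08, and to 0.19 for the 12 of these probes under a signal of 100 on array B. It covers printing and scanning only. Of the B lineage markers, 7 of 10 were dim on both arrays, including Cd79a, Ms4a1 and Pax5.

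Interleukin receptors fall into families that share a chain. The common gamma chain Il2rg serves the receptors of IL-2, IL-4, IL-7, IL-9, IL-15 and IL-21, and gp130, the product of Il6st, serves IL-6, IL-11 and IL-27. Most receptors without an enzyme of their own pass the signal to JAK kinases and STAT factors, while those of the IL-1 family use Myd88 and the Irak kinases and those of the IL-17 family use Traf3ip2. Ba/F3 cells are a common host for receptor chains in the laboratory, because they depend on IL-3 and can be switched to another cytokine by adding its receptor.

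The probes whose values carry the comparison are given by the first 30 of their 60 bases, so that each transcript that was read can be identified. Positions are those of the whole probe in build mm9, as the scanner output states them. No annotation of that build was used here, so the part of the gene they lie in is not given. The first 7 were brighter on array A and the other 6 on array B.
Il6, chr5:30346367-30346426, plus strand: ctgttacctagccagatggtttcttggaat
Il4, chr11:53426076-53426135, minus strand: gtccaagtccacatcactgaaagacttcct
Il11, chr7:4724847-4724906, minus strand: ctggggtctctatgaaatctgttcacagtg
Il23a, chr10:127733766-127733825, minus strand: tgataagactaatctatcagcccagacatc
Il2ra, chr2:11614744-11614803, plus strand: gtggcttctgtttgatctctctcaatgata
Il1rap, chr16:26701498-26701557, plus strand: gatgttgtcaacgcctttgtttctaaatgt
Il18rap, chr1:40605729-40605788, plus strand: ttccaggttctggacccaaattcgttacca
Il34, chr8:113265835-113265894, minus strand: aagaacgacggggtgcctcctaggatccca
Il5, chr11:53538468-53538527, plus strand: cccccagtttactccaggaaaaacagatgt
Il15, chr8:84858403-84858462, minus strand: tgcaggttattttacatgagtacagtaaca
Il17rc, chr6:113433073-113433132, plus strand: gcgaggaatgggacctgggaccctgcacta
Il17rc, second probe, chr6:113432655-113432714, plus strand: ttccaccaccagcgacgccgtatcctgcag
Il4i1, chr7:52096115-52096174, plus strand: ctcttcagggcagacagaccacctacacta

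Of the 80 genes, 25 were measured on both arrays, meaning that at least 1 of their probes was well above background on array A and array B alike. This was 31.25% of them, against 46.7% of all genes. A further 2, Il23a and Il18rap, were well above background on array A only, and 2, Il5 and Il15, on array B only. The other 51 were dim on both. Among the 25 measured genes, 5 were at least 2-fold brighter on array A, which is 20% of them, where 3.85% of the 14813 genes measured were. Toward array B, 3 genes passed 2-fold, or 12%, where 7.3% of all measured genes did. The remaining 17 lay within 2-fold. Over all 25 the median difference was 0.06 against -0.02 over all genes, and the quartiles were -0.48 and 0.76 against -0.41 and 0.34. Scaling to the median in place of the 75th percentile moved the median of all genes to 0.27, and then 7 interleukin genes passed 2-fold toward array A and 2 toward array B, beside 8.86% and 3.96% of all genes. With quantile scaling there were 6 and 2, beside 4.42% and 6.18%.

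**Figure D1:**
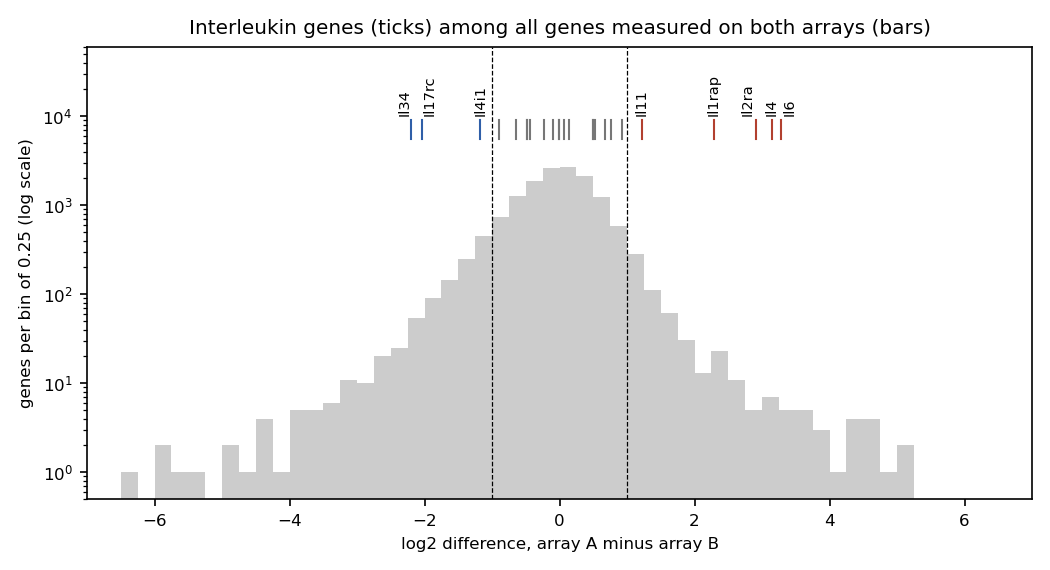
Differences of the 25 measured interleukin genes, drawn as ticks with the 8 past 2-fold named, above the distribution of the 14813 genes measured on both arrays. The x axis gives the log2 ratio of array A to array B, the y axis counts genes per bin on a log scale, and the dashed lines mark 2-fold. Il6, Il4 and Il2ra lie in the sparse right tail.

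Among the ligands measured on both arrays, the largest difference was that of Il6, the gene of a cytokine of inflammation and of the acute phase. It read 52584 on array A against 3867 on array B, a 9.76-fold difference, or 3.29 on the log2 scale. Of the 14813 measured genes, this was the 23rd largest difference toward array A. It was well above background on both arrays, so both lines gave a measured Il6 signal. In bulk RNA of this kind, a smaller share of cells with a transcript and less transcript in each cell cannot be told apart.

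Il4, the cytokine of type 2 helper T cells, mast cells and basophils, was the only gene past 2-fold whose probe was printed at 10 spots. On array A they read between 1557 and 1858, with a median of 1710, and on array B between 114 and 160, with a median of 141. The lowest spot of array A was above the highest of array B. The difference was 3.14, or 8.83-fold, where the SD over the spots was 0.06 for array A and 0.14 for array B. The probes of Il10, Il12b and Il1b were printed 10 times as well, and their medians were between 5.51 and 16.7 on both arrays. None was well above background at all spots. Il12b and Il1b each had 1 spot on array B that was well above background and marked by the scanner software as an outlier, and Il1b had 1 on array A without a mark.

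**Figure D2:**
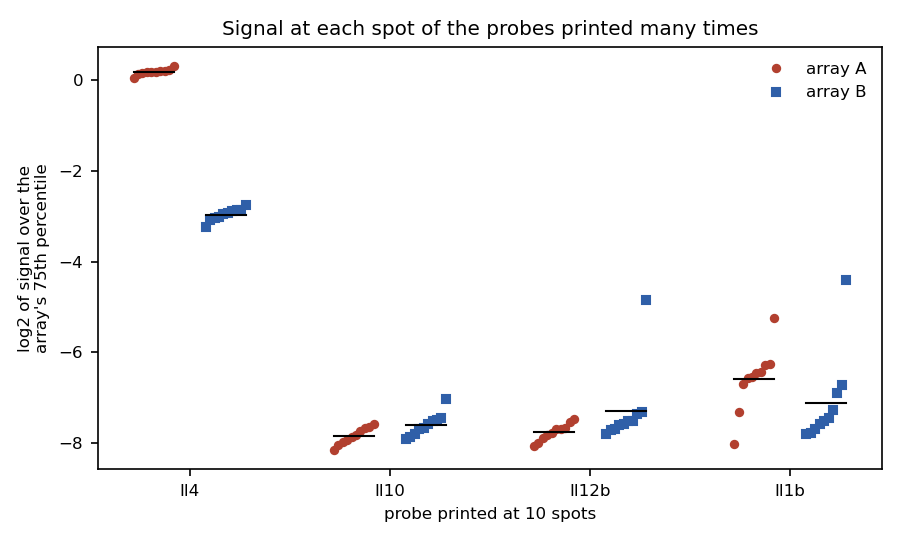
Signal at each of the 10 spots of the probes for Il4, Il10, Il12b and Il1b, as log2 of signal over the array's 75th percentile, with array A as circles, array B as squares and the mean of the spots as a line. The spots of Il4 form separate groups on the arrays. Those of the other probes lie far lower, except for single spots of Il12b and Il1b.

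Il11, a ligand of the gp130 family that acts on stromal and blood progenitor cells, read 129 on array A and 39.5 on array B, a difference of 1.22 or 2.33-fold. After background correction by normexp with an offset of 50 the difference was 0.28, short of 2-fold. Il23a codes for the p19 subunit of IL-23 and read 461 on array A, where it was well above background, and 22.4 on array B, where it was not. Set against the lowest signal well above background there, 22.9, it was at least 14.5-fold brighter on array A. Il12b, the p40 subunit with which p19 pairs, was dim on both arrays.

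Toward array B, Il34 was the largest measured difference. IL-34 is a ligand of the receptor of macrophage colony-stimulating factor and supports microglia and Langerhans cells. Its signals of 101 on array A and 334 on array B gave -2.20, which is 4.60-fold brighter on array B. Il5, the growth factor of eosinophils, was not well above background on array A, with 5.93, but was so on array B, with 130, which makes it at least 6.57-fold brighter on array B. Its only spot on array B carries a mark for uneven local background, so no value is left without marked spots. Il15, the cytokine that sustains natural killer cells and memory T cells, gave 5.32 on array A against 73.6 on array B, a bound of at least 3.72-fold toward array B. Of the 1691 genes that were well above background on 1 array only, 17.2% had a bound of at least 2-fold toward array A and 28.5% toward array B, and all 4 such interleukin genes had one, 2 in each direction.

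The other ligand genes measured on both arrays were within 2-fold. Il16, which codes for a precursor from which a chemoattractant of CD4+ cells is cut, read 962 on array A and 1285 on array B, a difference of -0.90. Il27, a subunit of the heterodimer IL-27, read 226 and 155 and differed by 0.06. Il22, a cytokine that acts on epithelia, read 39.0 and 32.7, a difference of -0.23. Il17d, an IL-17 family ligand, differed by -0.10 at the probe measured on both arrays, and Ifnl3, a type III interferon that the array lists under its older name Il28b, by -0.00. The differences of Il22, Il17d, Il27 and Ifnl3 changed sign with the scaling, and Ifnl3 was read at a spot marked for uneven background on array B.

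Il2ra had the largest difference among the receptor chains measured on both arrays. It codes for CD25, the chain that gives the IL-2 receptor its high affinity. It read 11855 on array A against 1134 on array B, a difference of 2.91 or 7.50-fold. The chains that complete this receptor moved less. Il2rb, shared by the receptors of IL-2 and IL-15, read 1066 and 401, a difference of 0.93 that passed 2-fold with median scaling. Il2rg read 5570 and 2849, a difference of 0.49. The common gamma chain family was also the one with the most genes measured among the receptors, 6 of 8, with Il7r and Il9r dim.

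Il15ra lies next to Il2ra on chromosome 2, with the probes 40.0 kb apart, and its product presents IL-15 to neighbouring cells. Its probes for transcript variants 1 and 2 differed by 0.62 and 0.43, a mean of 0.53, so that Il2ra was past 2-fold and its neighbour was not. Il21r, the private chain of the IL-21 receptor, read 342 and 174 and differed by 0.49. Il4ra, the ligand-binding chain for IL-4, was read by 2 probes that disagreed. One read 55.4 and 80.9, a difference of -1.03, and the other 1372 and 885, a difference of 0.15. Their mean of -0.44 turned to 0.15 with the brighter probe alone, and no direction is given for Il4ra.

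In the IL-1 family of receptors, Il1rap and Il18rap were brighter on array A and the other 7 genes were dim on both arrays. Il1rap codes for the accessory chain that the receptors of IL-1 and IL-33 share. The probe for its transcript variant 2 read 424 on array A and 62.5 on array B, a difference of 2.28 or 4.86-fold. A probe for variant 1 read 64.5 and 17.4 and passed the background mark on array A alone, at least 2.02-fold brighter there, and the last of its 3 probes was dim on both. Il18rap, the accessory chain of the IL-18 receptor, read 288 on array A and 25.4 on array B, at least 8.14-fold brighter on array A. Il18r1, the partner chain 48.1 kb away on chromosome 1, was dim on both arrays, as were Il1r1 and Il1rl1, the chains that bind IL-1 and IL-33.

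Among the receptor chains with an Il name that were measured on both arrays, only Il17rc was past 2-fold toward array B. With Il17ra it forms the receptor of IL-17A and IL-17F. Its first probe read 886 on array A against 2254 on array B, and its second 40.0 and 137. The differences of -1.83 and -2.26 went the same way, and their mean was -2.04, or 4.12-fold. Il17ra read 259 and 291, a difference of -0.65. Il17rb, Il17rd and Il17re were dim on both arrays, including Il17re, whose probe lies 12.5 kb from that of Il17rc.

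**Figure D3:**
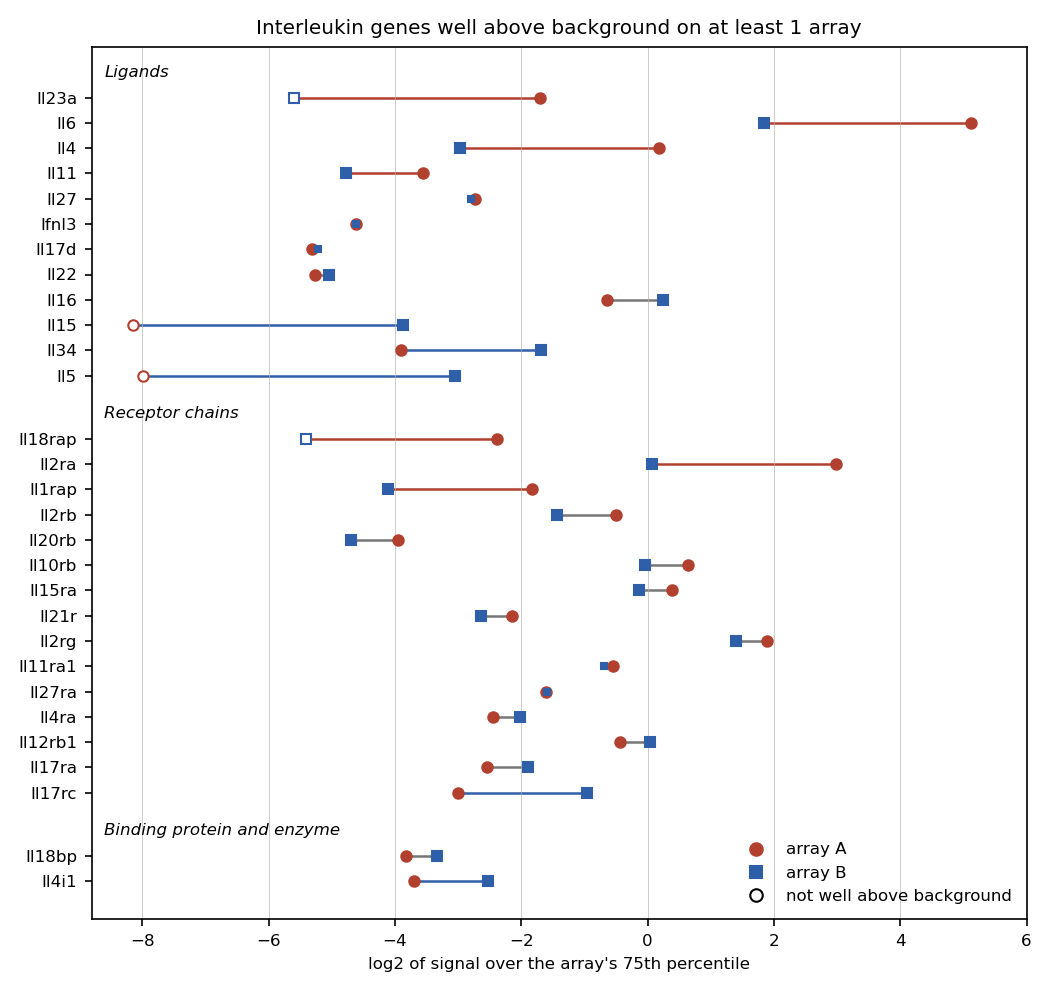
Signals of the 29 interleukin genes well above background on at least 1 array, as log2 of signal over the array's 75th percentile, with array A as circles and array B as squares, by role. Open symbols were not well above background. Each row compares 1 gene between the arrays, and levels are not to be compared between genes. Red lines join genes at least 2-fold brighter on array A (7 genes), blue lines those brighter on array B (5), and grey lines the 17 within 2-fold.

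Of the chains that serve the IL-10 family, Il10rb read 2353 on array A and 1054 on array B, a difference of 0.68. It is shared by the receptors of IL-10, IL-22 and the type III interferons, whose private chains Il10ra, Il22ra1 and Ifnlr1 were dim on both arrays. Il20rb, a chain for IL-19, IL-20 and IL-24, read 97.9 and 41.5, a difference of 0.76 that passed 2-fold with median and with quantile scaling. For the IL-6 and IL-12 families, 3 of 7 receptor genes were measured. Il11ra1 differed by 0.14 and Il27ra by -0.01, the latter with a sign that changed with the scaling. Il12rb1, the chain that IL-12 and IL-23 share, read 1108 and 1105 at the probe measured on both arrays, a difference of -0.48 after scaling. Its second probe was well above background on array B only, and the mean of both probes, -1.15 without a filter on dim probes, was past 2-fold.

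Il6st, Il6ra, Il12rb2 and Il23r were dim on both arrays. Of the 80 genes, 51 were dim on both arrays, among them 26 of 38 ligand genes and 23 of 38 receptor chain genes. Of all genes on the array, 46.7% were measured on both arrays. Counts over a list of 21 complexes of ligand and receptor genes are to be read beside these shares. The list was written from textbook knowledge after the signals had been seen, and it is a description only. In 5 of them every chain was measured on both arrays, those of IL-2, IL-15, IL-17A, IL-21 and the IL-4 receptor with the common gamma chain. In 13 some chains were measured, and in 3, those of IL-6, IL-18 and IL-31, none was. The genes of ligand and of all chains were above background on at least 1 array in 2 complexes. One was that of IL-4, with its ligand gene 8.83-fold brighter on array A, and the other that of IL-15, with its ligand gene above background on array B only. A probe that is dim does not show that the transcript was missing.

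**Figure D4:**
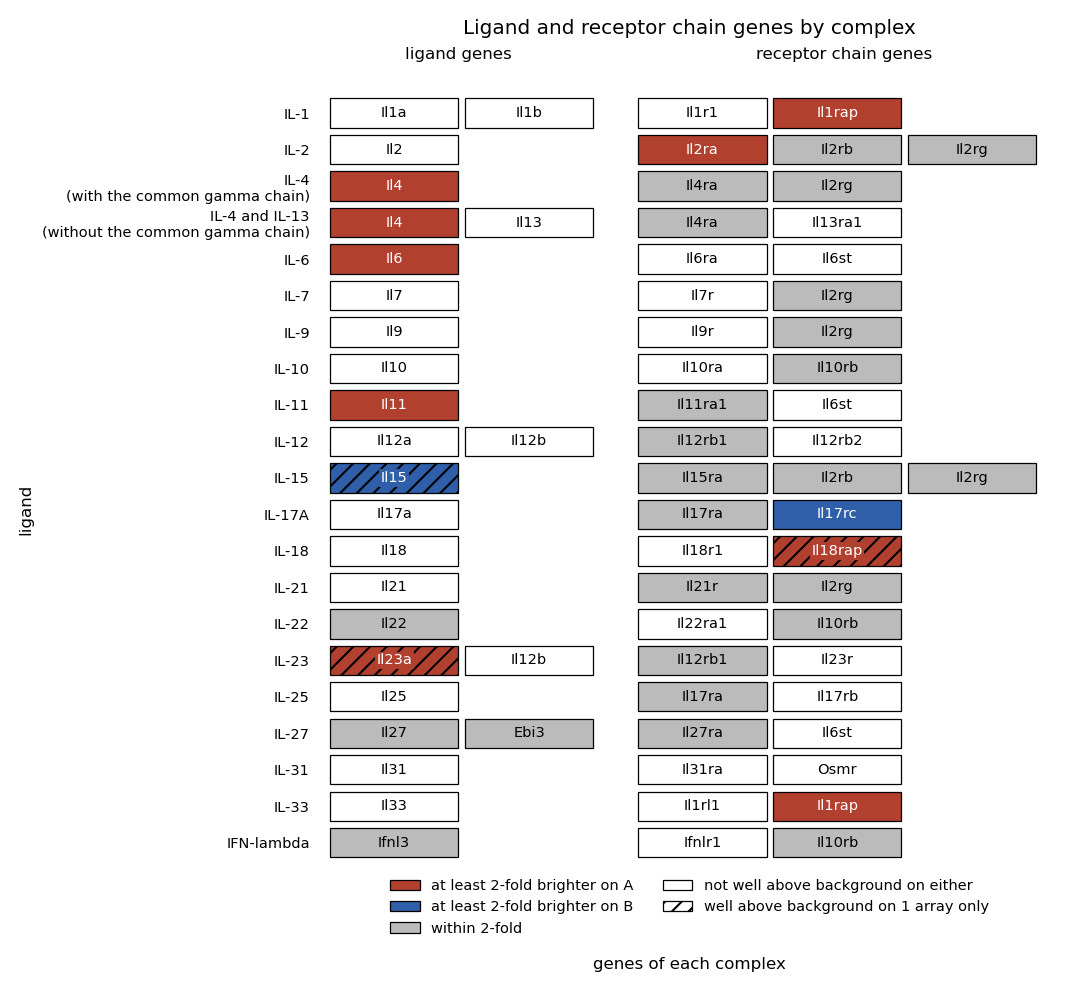
Ligand genes and receptor chain genes of 21 cytokines, 1 row each. Red fields were at least 2-fold brighter on array A, blue fields on array B, grey fields within 2-fold, white fields dim on both arrays, and hatched fields well above background on 1 array only. IL-6 shows a red ligand gene beside white receptor genes, and IL-2 the reverse order, with a white ligand gene beside 3 measured chains.

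Outside ligands and receptors, Il4i1 and Il18bp were measured. Il4i1, a secreted amino acid oxidase that IL-4 induces in B cells, read 116 on array A and 187 on array B, a difference of -1.17 or 2.25-fold toward array B. It fell short of 2-fold after normexp and with median or quantile scaling. Il18bp, the soluble protein that captures IL-18, read 106 and 107, a difference of -0.49 after scaling. The antagonist Il1rn and the soluble receptor Il22ra2 were dim on both arrays.

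**Figure D5:**
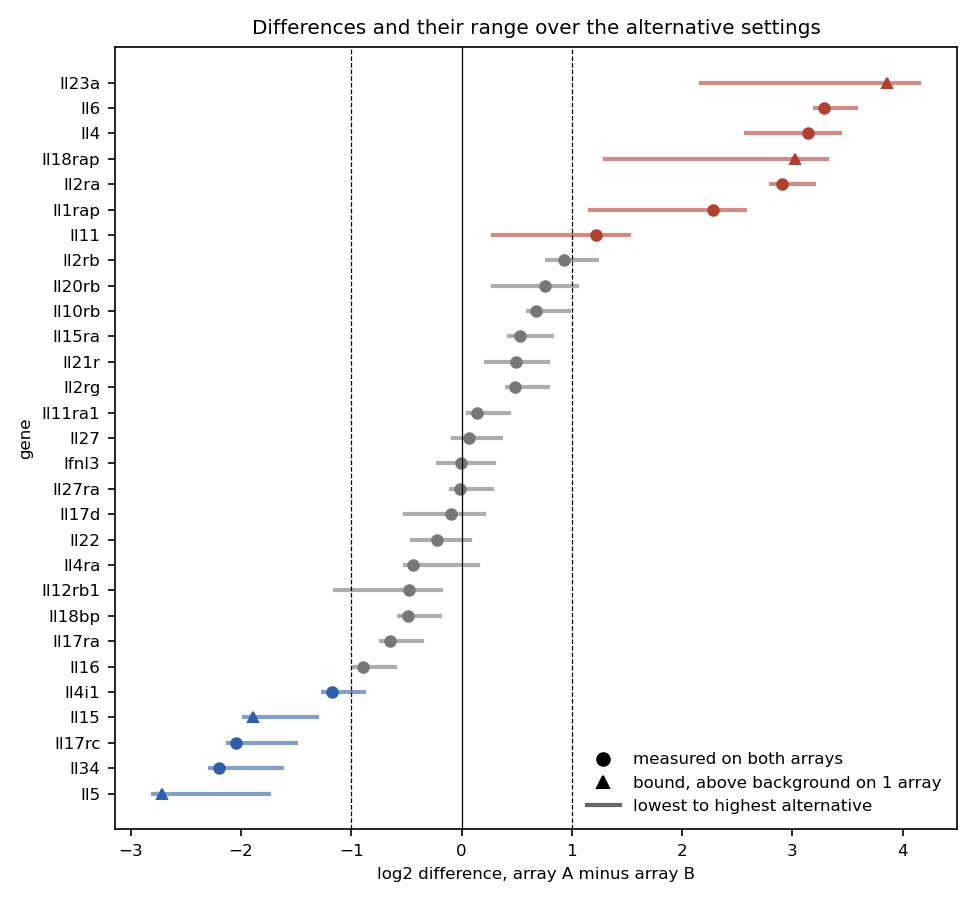
Differences of the 29 interleukin genes above background on at least 1 array, on the x axis as log2 of array A over array B. Symbols give the values of the text, triangles standing for bounds, and bars run from the lowest to the highest value among the alternative ways of processing. The dashed lines mark 2-fold. The bars of Il11 and Il4i1 reach inside the dashed lines, and those of Il2rb, Il20rb and Il12rb1 cross them from within.

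The 51 genes that were dim on both arrays had 62 probes, with signals from 5.36 to 27.1 on array A and from 4.52 to 24.4 on array B. The medians were 7.04 and 5.52, and 48 of the probes were under 10 on both arrays. They held 10 of 11 IL-1 family ligands and antagonists, among them Il1a, Il1b, Il18 and Il33. They also held 4 of 6 common gamma chain ligands (Il2, Il7, Il9 and Il21), 5 of 6 IL-17 family ligands, 4 of 6 IL-10 family ligands and 2 of 6 ligands of the IL-6 and IL-12 families. The group of IL-5, IL-13 and IL-31 with their receptors had 5 of 6 dim genes. Of all 31709 genes, 14813 were measured on both arrays, 1691 were well above background on 1 only and 7 were mixed between probes. The rest were dim on both, and the counts of dim interleukin genes are to be read beside that share. On chromosome 11, Il4, Il13 and Il5 lie in this order, with the probe of Il13 18.7 kb from that of Il4 and 93.6 kb from that of Il5. These neighbours, the type 2 cytokine cluster, differed in 3 ways, with Il4 brighter on array A, Il13 dim on both and Il5 above background on array B only.

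The 250 bases before the start of transcription are shown for 5 of the interleukin genes, from both sides of the comparison. The windows shown for Il6, Il4 and Il18rap, brighter on array A, each held a match to the motifs below. Those of Il2ra and Il1rap, also brighter on array A, held none and are not shown, so the 5 do not compare the sides. RefSeq windows of build GRCm38.p6 were at hand for 63 of the 80 genes and not for Il23a, Il34 or Il15. Capitals mark the letters of 4 motifs on either strand, GGANTTTCC for NF-kB, TTNNGCAAT for C/EBP, TGANTCA for AP-1 and GGAAAA for NFAT. The letters TTCNNNGAA for STAT factors were also searched and not found in any of the 5. The motif letters were chosen after the Il6 sequence and the signals had been seen, so the matches in Il6 come with the choice.
Il6, chr5:30012864-30013113, plus strand: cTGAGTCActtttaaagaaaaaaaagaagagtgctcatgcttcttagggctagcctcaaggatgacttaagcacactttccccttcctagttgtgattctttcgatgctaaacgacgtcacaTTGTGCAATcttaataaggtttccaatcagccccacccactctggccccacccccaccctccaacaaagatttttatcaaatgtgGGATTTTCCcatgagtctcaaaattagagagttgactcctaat
Il4, chr11:53618666-53618915, minus strand: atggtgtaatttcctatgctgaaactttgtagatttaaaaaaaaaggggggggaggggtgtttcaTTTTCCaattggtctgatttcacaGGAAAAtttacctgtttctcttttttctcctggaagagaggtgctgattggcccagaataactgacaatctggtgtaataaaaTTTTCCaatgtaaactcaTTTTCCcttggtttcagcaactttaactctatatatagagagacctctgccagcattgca
Il18rap, chr1:40515112-40515361, plus strand: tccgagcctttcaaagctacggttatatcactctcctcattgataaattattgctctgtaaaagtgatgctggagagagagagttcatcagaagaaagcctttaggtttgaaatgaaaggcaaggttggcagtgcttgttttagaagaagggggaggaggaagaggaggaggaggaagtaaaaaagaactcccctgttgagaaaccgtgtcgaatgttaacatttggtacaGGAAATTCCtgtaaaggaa
Il5, chr11:53720544-53720793, plus strand: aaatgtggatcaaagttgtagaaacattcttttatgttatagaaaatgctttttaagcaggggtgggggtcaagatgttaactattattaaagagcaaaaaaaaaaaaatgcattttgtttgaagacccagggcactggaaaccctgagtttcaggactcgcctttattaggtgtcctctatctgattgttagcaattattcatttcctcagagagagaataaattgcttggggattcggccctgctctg
Il17rc, chr6:113471205-113471454, plus strand: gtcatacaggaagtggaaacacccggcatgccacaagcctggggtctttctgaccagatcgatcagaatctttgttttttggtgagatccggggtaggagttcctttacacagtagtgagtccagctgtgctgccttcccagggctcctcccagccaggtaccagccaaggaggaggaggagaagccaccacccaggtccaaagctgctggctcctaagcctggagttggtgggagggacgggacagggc

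The Il6 window held a match of the AP-1 letters at -249 from the start, of C/EBP at -128 and of NF-kB at -43, and the NF-kB match contains one of the NFAT letters at -40. Il4 held 4 NFAT matches, at -185, -161, -78 and -60, and Il18rap 1 NF-kB match at -19. Of the other genes brighter on array A with a window, Il11 held the AP-1 and NFAT letters in 1 of its windows. Il2ra and Il1rap held none of the 5, nor did a second window of Il11 or of Il4. None of the 5 motifs was in the windows of Il5, Il17rc and Il4i1. Of all 32851 windows, 1.07% held the NF-kB letters, 1.93% those of C/EBP, 6.75% of AP-1, 7.02% of STAT and 20.4% of NFAT. Genes dim on both arrays held them as well, Il13 those of NF-kB and NFAT for example. Of the windows of dim genes, 3.85% held the NF-kB letters, 1.92% those of C/EBP, 17.3% of AP-1, 15.4% of STAT and 26.9% of NFAT. A match is a description of the letters.

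Genes that act with the interleukin receptors were counted from lists. Of the JAK kinases and STAT factors, 9 of 11 were measured and 2 were at least 2-fold brighter on array B, Tyk2 at -1.32 and Jak3 at -1.06. Jak3, the kinase that binds the common gamma chain, was short of 2-fold with median scaling, with normexp and with its brightest probe. Of the receptor chains and subunits outside the Il names, 5 of 10 were measured, and Csf2rb at -1.86 and Csf2rb2 at -1.60, the beta chains of the IL-3 receptor and its relatives, were brighter on array B. Lifr, a chain of the receptor of leukaemia inhibitory factor, had a bound of at least 2.05-fold toward array A. The inflammasome and IL-1 processing list had 6 of 8 measured, with Casp4 at 1.82 and Casp1, the protease that cuts the precursors of IL-1 beta and IL-18, at 1.09, both toward array A.

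All 11 IL-1 receptor adaptors and kinases were measured. Irak3 at -1.91 and Sigirr at -1.15 were brighter on array B, and both code for inhibitors of this pathway. Sigirr was short of 2-fold with median scaling. The 5 IL-17 receptor adaptors were measured and lay within 2-fold. Of the cytokine feedback inhibitors, 10 of 11 were measured, and Cish at 2.20 and Socs5 at 1.53 were brighter on array A. The median differences of these lists were -0.39 for JAK and STAT, -0.29 for the receptor chains, 0.53 for the inflammasome, -0.18 for the IL-1 adaptors, -0.12 for the IL-17 adaptors and 0.03 for the feedback inhibitors, against -0.02 over all genes.

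Markers of other blood cells differed between the arrays beside the interleukin genes. Of 9 neutrophil markers, 6 were measured and 5 were at least 2-fold brighter on array B, led by S100a9 at -5.90 and Ngp at -4.07, S100a8 was at least 180.0-fold brighter there, and the summed signal of the list was 0.761 times the 75th percentile on array A and 22.7 times on array B. Camp and Ly6g were dim on both. Unlike the differences, the sums take the mean over all probes of each gene, dim ones included. Of 9 markers of mast cells and basophils, cells known as sources of Il4, 4 were measured. Cpa3 at -5.44, Cma1 at -2.95 and Gata2 at -1.40 were brighter on array B and Hdc at 1.67 on array A. Fcer1a had a bound of at least 45.7-fold toward array B, and Kit, Ms4a2, Mcpt8 and Tpsb2 were dim on both. The sums of this list were 13.0 and 35.6, and Gata2 made up most of each. Of the 10 T and NK cell markers, known to carry Il2ra, Il2rb and Il18rap, 3 were measured and Cd3d at 1.27 was brighter on array A, short of 2-fold with normexp. The sums of the T and NK list were 0.520 and 0.423, and 6 of its genes were dim on both arrays. Of the 9 macrophage and monocyte markers, 5 were measured and Fcgr1 at 2.23 was brighter on array A. Adgre1 at 0.90 and Itgam at 0.05 also went toward array A, and Ccr2 at -0.80 and Csf1r at -0.46 toward array B. Lyz1 had a bound of at least 8.59-fold toward array B and Lyz2 of at least 1.76-fold. The sums were 8.40 and 5.27, and Fcgr1 made up most of that on array A. The B lineage list had Cd79b at -2.30 and Vpreb1 at -1.39 toward array B, the latter short of 2-fold with normexp, with sums of 7.32 and 5.66. Most of both sums came from Ptprc, at 0.75 and named here after its values were seen. The sums therefore follow Ptprc and not Cd79b and Vpreb1, the other measured genes of this list, which were brighter on array B. The part of these differences in those of the interleukin genes was not tested.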

How the data were processed

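Total RNA of 2 cell lines was labelled with cyanine 3 and hybridised by the authors to Agilent whole mouse genome arrays, 1 array per line. Feature Extraction 9.5.1.1 gave the deposited background-corrected intensity of each spot with its quality marks. For their deposited table of log2 values, the authors raised signals below 1 to 1, divided by each array's 75th percentile and took logs.

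The same steps were repeated here from the intensities of 43020 spots. The lowest was 5.27 for array A and 4.51 for array B, so the floor of 1 altered 0 spots. A probe was the mean of log2 over its spots and well above background if marked so at every spot. A gene was the mean of those of its probes that passed on both arrays. For a gene above background on 1 array, a bound was taken against the higher of the dim probe's signal and the lowest signal well above background, 27.6 on array A and 22.9 on array B. Probes were named through RefSeq tables of GRCm38.p6, 95 of 99 interleukin probes by accession and 4 by symbol, which renamed 2 genes.

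With 1 array per line no test was made, and a difference of 2-fold or more was counted. The interleukin genes and the lists were chosen with earlier results of these data known, and the complexes and motifs after the values had been seen. Every interleukin gene well above background on at least 1 array was named with its values, and list genes where at least 2-fold apart, up to 4 a list. Some list genes short of that were also named, after their values had been seen. A gene of the B lineage list was left out of it and is not reported here. The steps from signals to gene differences and bounds were tested on simulated data. The following settings were changed in turn: scaling before the floor, raising the floor to 5, using as divisor the median, the 75th percentile of probes bright on both arrays or quantiles, correcting by normexp (offset 50), loosening or dropping the background filter, removing spots marked as outliers, summarising a gene by the median or by its brightest probe, keeping the array's own names, starting from the authors' table, requiring 3-fold, and adding the bounds. Python 3.11.15 with numpy 2.4.6, pandas 2.3.3 and matplotlib 3.10.9 and R 4.3.3 with limma 3.58.1 were used.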

Additional observations from a re-analysis of the deposited data

How the results depend on the processing

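The median difference of the measured interleukin genes, 0.06, was 0.36 with median scaling, -0.017 with division by the 75th percentile of probes bright on both arrays, 0.25 with quantile scaling, -0.039 with normexp and -0.16 without a filter on dim probes. Of 25 genes, 5 passed 2-fold toward array A and 3 toward array B. With the looser filter these were 8 and 5 of 34, beside 5.12% and 10.2% of all genes. Without a filter they were 9 and 8 of 80, beside 4.70% and 8.76%. With the bounds added they were 7 and 5 of 29. Beside them, 3.85% and 7.3% of all genes measured on both arrays passed 2-fold. Of all genes well above background on 1 array only, 17.2% and 28.5% had such a bound. Of the 12 genes past 2-fold or with such a bound, 10 stayed past it in every alternative that gave a value, with Il11 and Il4i1 as the exceptions, and 0 changed sign. Some alternatives could not move a value. The bounds were carried over unchanged when the background filter was loosened or dropped. Scaling before the floor altered nothing, and the median or brightest probe cannot alter a gene read by a single probe. With normexp the differences were 1.34 for Il1rap, 1.30 for Il18rap, 2.17 for Il23a and -1.74 for Il5, and Il1rap was 1.17 without a filter. The causes were not tested. Il5 and Ifnl3 have no value with marked spots left out. No paired analysis was possible because each cell line had 1 array. The precision is limited by the number of arrays, and near background by the signal itself.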
